A study of Mus musculus with 57 samples.

Results

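Testosterone given to XX mice on the day of birth was followed on day 4 by no called difference in striatal gene expression. The comparison set 5 XX+T arrays against 5 XX arrays of the day 4 striatum, 10 of the 57 arrays in the series, chosen by their labels for region, age and treatment. XX mice were females given oil on the day of birth, and XX+T mice were females given testosterone propionate in oil on the same day. Another 5 XY arrays of the same region and age, from males given oil, entered the fit and are shown beside the others. All mice were C57BL/6J. Each array held RNA pooled from 3 animals and the 5 pools of a group were separate. Whole litters received 1 treatment, so that treatment and litter cannot be told apart. The striatum was cut out using the external and internal capsules, the cortex and the anterior commissure as landmarks. At day 4 all animals still had their gonads.

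The striatum holds mostly projection neurons that release GABA. One class, the direct pathway, carries the D1 dopamine receptor and substance P, and the other, the indirect pathway, carries the D2 receptor and enkephalin. In rodents a surge of testosterone around birth, converted in part to estradiol by aromatase, sets lasting differences in male-typical brain regions. Both steroids act through nuclear receptors that bind DNA. The best known targets of this surge lie in the preoptic area and the bed nucleus of the stria terminalis (BNST/POA), the other region sampled in the series. In rodents the striatum has far fewer cells with the nuclear receptors.

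The arrays were similar in probes detected and in correlation. Between 12967 and 13643 probes were detected on the 10 arrays (detection p under 0.05), with ranges of 12967 to 13617 in XX and 13284 to 13643 in XX+T. Pairwise correlations over 13731 probes lay between 0.982 and 0.997, with a mean of 0.99 within XX, 0.992 within XX+T and 0.992 between the groups. For 6 of the 10 arrays the closest other array was of the same group. Treatment accounted for 7.81% of the variance over all probes, against the 11.1% that labels placed at random would give on average. XX 4 stood farthest out on the first principal component (38.8% of variance), with a score of 24, followed by XX+T 2 at 14.4. XX 4 also had the fewest detected probes. XX+T 5 had the lowest median before normalization, 7.12 log2 units against 7.38 to 7.64 on the other arrays of the comparison. Its interquartile range was 1.7 log2 units, against 1.92 to 2.14.

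The sex labels were borne out by sex-linked genes, which cannot tell XX from XX+T. Eif2s3y, a Y-linked translation factor gene, measured between 6.78 and 6.96 log2 units on all 10 XX and XX+T arrays and was detected on none of them. On the XY arrays it measured between 8.92 and 9.95. Ddx3y, a Y-linked RNA helicase gene, measured 7.61 to 8.08 in XX and XX+T and 10.5 to 10.81 in XY. Xist, a noncoding RNA of the inactive X chromosome, measured 7.03 to 7.19 in XY and 7.66 to 9.14 in XX and XX+T.

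The dissection was also checked against genes that mark the region. Of 21 measured genes of striatal projection neurons, 17 were higher in the day 4 striatum than in the day 4 BNST/POA and 2 were lower (limma, adjusted p under 0.05), where 31.5% of all probes were higher and 30.7% lower. Ppp1r1b, the DARPP-32 phosphatase inhibitor of dopamine signaling, was 61-fold higher in the striatum (log2 difference 5.93 ± 0.11 SE, 15 arrays of each region). Drd1, the D1 dopamine receptor, was 9.04-fold higher and Drd2, the D2 receptor, 3.35-fold higher. Of 16 measured genes of septal, preoptic and hypothalamic neurons, 15 were lower in the striatum and none was higher. Avp, encoding vasopressin, measured 6.95 to 7.26 in the striatum and 10.8 to 12.29 in the BNST/POA.

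Across the transcriptome, 0 of 13731 probes differed between XX+T and XX at adjusted p under 0.05 (0%, limma with Benjamini-Hochberg adjustment), and the smallest adjusted p rounded to 1. At unadjusted p under 0.05 there were 265 probes (1.93%), of which 120 were higher (0.874%) and 145 lower (1.06%) in XX+T. No difference at all would give about 687 such probes, 5% of those tested. With arrays centered on their medians in place of quantile normalization the split was 39 higher and 249 lower. The count was 632 without XX 4, 496 without XX+T 2 and 679 with array weights, and 0 were called in each. In 43 probes (0.313%) the 5 values of XX+T did not overlap the 5 of XX, with 19 higher (0.138%) and 24 lower (0.175%) in XX+T. The median absolute difference over all probes was 0.0469 log2 units. Only 20 probes differed by more than 0.5 log2 units and 2 by more than 1.

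**Figure D1:**
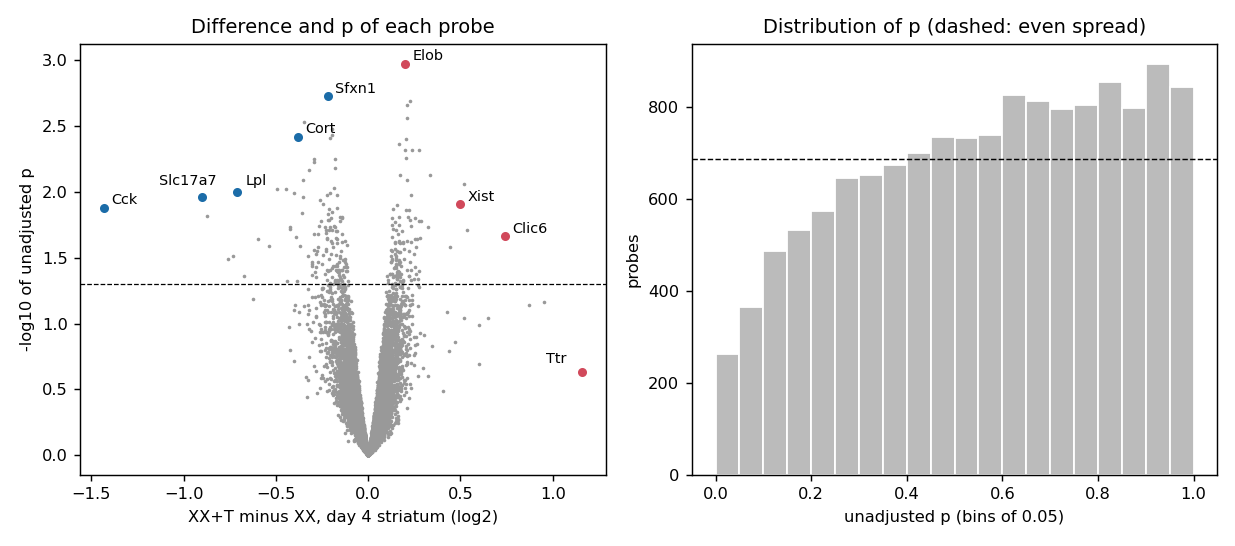
Left, log2 difference (XX+T minus XX, day 4 striatum, 5 arrays each) against -log10 of the unadjusted limma p for each of 13731 probes, with the dashed line at the 0.05 level and named genes in color (red higher, blue lower in XX+T). Right, number of probes in each 0.05 bin of p, with the dashed line at the number an even spread would give; the first bin, with 265 probes, is the lowest of all.

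These arrays bounded the size of what could have gone unseen. The 95% interval of the difference had a median half-width of 0.173 log2 units (5th percentile 0.113, 95th percentile 0.334). For 13348 probes (97.2%) the whole interval lay within 0.5 log2 units of 0, and for 13707 (99.8%) within 1 unit. In simulated arrays with the same mean and spread of each probe, 81 of 100 probes changed by 0.5 log2 units were called. Of 100 changed by 1 unit, 99 were called, and so were 7 unchanged probes. Each probe was drawn independently, without the variation that the real arrays share. The simulation therefore does not show how many such changes would be called on the real arrays.

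The ranking of probes by p is described next, with no member called. Elob, elongin B of the elongin and ubiquitin ligase complexes, headed it. It measured 14.12, 14.2, 14.16, 14.21 and 14.22 in XX 1 to 5 and 14.43, 14.39, 14.25, 14.43 and 14.4 in XX+T 1 to 5. The groups did not overlap, the difference was 0.20 ± 0.05 log2 units (SE, 5 against 5 arrays), and the limma adjusted p was 1. The other 2 probes of Elob differed by -0.02 and 0.06.

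Tmem38b, a cation channel of the endoplasmic reticulum, measured 8.62, 8.59, 8.79, 8.57 and 8.65 in XX and 8.83, 8.86, 8.98, 8.87 and 8.81 in XX+T, again with no overlap. Its second probe differed by 0.06. Zadh2, a prostaglandin reductase, Tmtc2, a mannosyltransferase of the endoplasmic reticulum, and Eipr1, of endosomal trafficking, also had groups that did not overlap, each with a difference of 0.20 or 0.21. The higher end of the ranking further held Ccdc114 and Zmynd10, needed in human and mouse for the dynein arms of motile cilia, Nme5, of the cilium's radial spokes, Cmtm8, a membrane protein, and 1700088E04Rik. Ccdc114 measured 7.96, 7.98, 7.97, 7.82 and 8 in XX and 8.17, 7.98, 8.18, 8.2 and 8.24 in XX+T, so that XX+T 2 fell among the XX arrays. The 10 genes differed by 0.17 to 0.28 log2 units.

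At the lower end, Sfxn1, a mitochondrial serine transporter, measured 12.4, 12.32, 12.57, 12.41 and 12.45 in XX and 12.24, 12.35, 12.09, 12.21 and 12.17 in XX+T. The difference was -0.22 ± 0.06 (SE, limma adjusted p = 1), and XX+T 2 lay above XX 2. A second, brighter probe of Sfxn1 differed by -0.06. Cort, the interneuron peptide cortistatin, had the widest difference of the 10. It measured 7.99, 7.65, 7.45, 7.35 and 7.62 in XX and 7.47, 7.25, 7.07, 7.33 and 7 in XX+T, and was detected on 5 XX arrays and 2 XX+T arrays. The difference was -0.38 ± 0.11, and its second probe differed by -0.28. With normexp background correction, Cort differed by -0.96. Faah, which degrades the endocannabinoid anandamide, differed by -0.29 on one probe and -0.23 on the other. Mtmr14, a phosphoinositide phosphatase, was the only one of these 10 whose groups did not overlap (-0.20 ± 0.06), and its other 3 probes differed by 0.07, -0.06 and 0. The others were Atp2c1, a Golgi calcium pump, Bcl2l13, a mitochondrial outer membrane protein, Tollip, an adaptor of innate immune signaling, Pip4k2b, a phosphoinositide kinase, Syne1, which links the nucleus to the cytoskeleton, and Tafa1, a secreted protein whose probe was detected on no array of either group. Second probes of Atp2c1, Tollip and Pip4k2b differed by -0.05, -0.05 and -0.13.

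**Figure D2:**
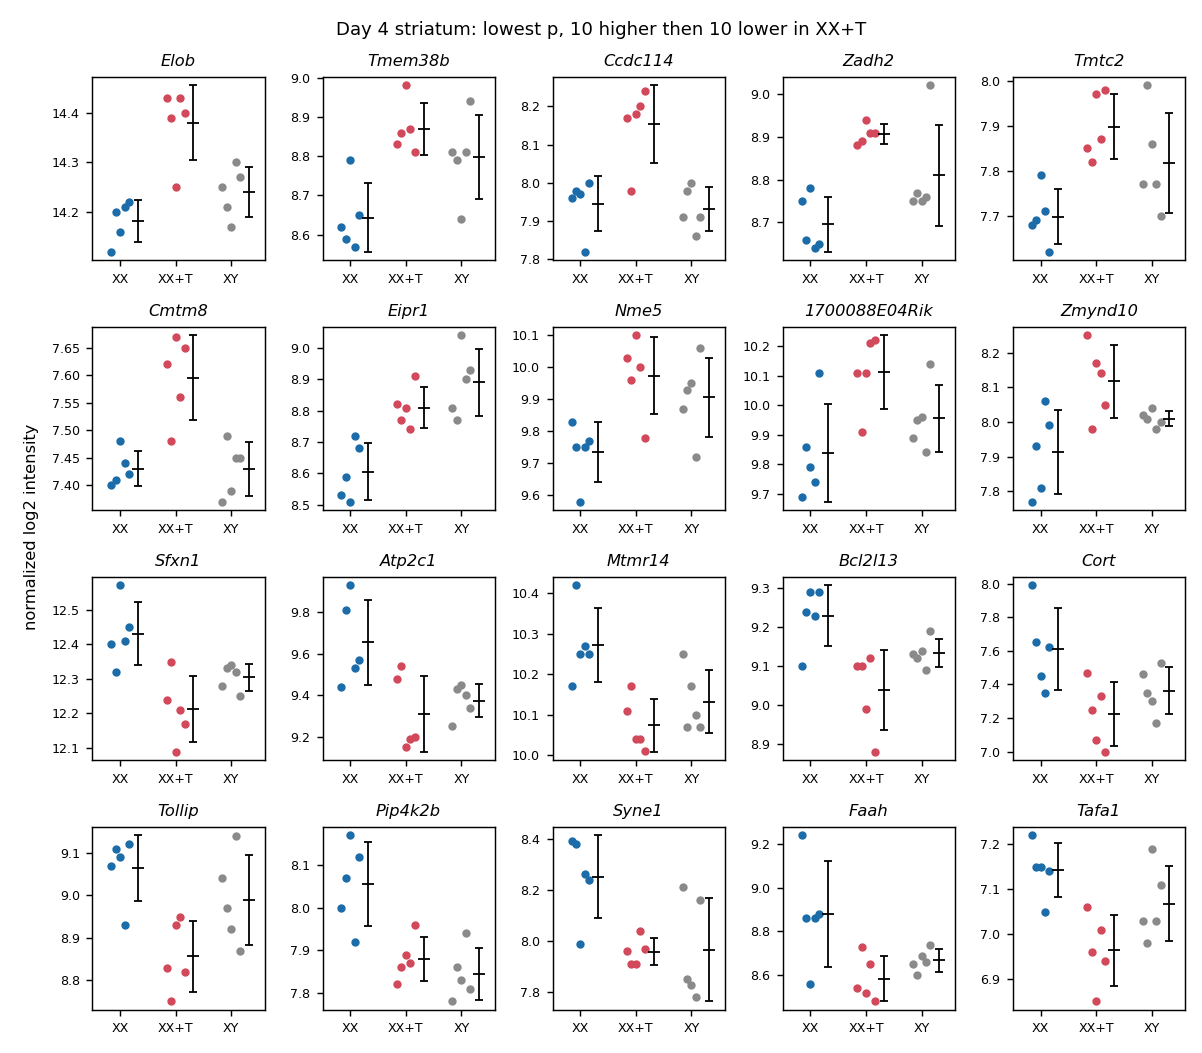
Normalized log2 intensity of the 10 genes with the lowest p among those higher in XX+T (upper 2 rows) and among those lower (lower 2 rows), 1 point per array, with mean and SD (bars) of 5 arrays per group; each vertical axis has its own range and does not start at 0. The groups differed by 0.17 to 0.38 log2 units, and XX and XX+T points overlapped in 14 of the 20 panels.

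Of these 20 genes, 11 had further probes. Of the 17 further probes 15 differed in the same direction, and 2 of them reached an unadjusted p under 0.05, those of Cort and Faah. The same 20 genes were looked up on separate arrays of the other age and of the other region. In the day 60 striatum, 7 of the 10 higher genes and 3 of the 10 lower genes differed in the day 4 direction. In the day 4 BNST/POA, all 10 higher genes and 5 of the 10 lower genes did. No share of all probes with the same direction is given beside these counts, so they are a description and not a replication. At an unadjusted p under 0.05 there, 1700088E04Rik (0.41 in the BNST/POA) and Mtmr14 (-0.24 at day 60) differed in the day 4 direction, and Tollip (0.45 at day 60) and Cort (0.15 in the BNST/POA) in the opposite one. Whether pools of both regions came from the same animals is not known.

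Promoters of the same genes were searched for the DNA words that steroid receptors bind. RefSeq promoter windows (GRCm38.p6, 250 bases before to 50 after the start) matched 16 of the 20 genes. The full androgen response element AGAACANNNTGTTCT was in 0 of the 16 and in 0.00913% of all 32851 windows, and the full estrogen response element GGTCANNNTGACC was in 0 of the 16 and in 0.07% of all windows. The androgen response half-site, TGTTCT on either strand and contained in the full element, was in 6 of the 16 genes (37.5%) and in 19% of all windows. In each search a gene counted if any of its windows matched, while the share of all windows is per window. The shares are therefore not on the same footing, as Atp2c1 had 2 windows and Syne1 had 3. The 6 genes with the half-site were Ccdc114, Eipr1, Cort, Tollip, Faah and Tafa1. The first of them in each direction are shown, with the half-site in capitals, at chr7:45923965-45924264 on the plus strand for Ccdc114 and at chr4:149126714-149127013 on the minus strand for Cort, which holds 2 copies. A match is only a match of letters, and receptor binding was not measured.
Ccdc114: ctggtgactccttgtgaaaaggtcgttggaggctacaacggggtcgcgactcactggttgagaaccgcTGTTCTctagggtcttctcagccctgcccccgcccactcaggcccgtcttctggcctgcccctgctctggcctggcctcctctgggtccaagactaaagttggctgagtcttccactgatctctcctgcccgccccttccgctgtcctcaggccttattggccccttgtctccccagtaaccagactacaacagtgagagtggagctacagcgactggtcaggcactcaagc
Cort: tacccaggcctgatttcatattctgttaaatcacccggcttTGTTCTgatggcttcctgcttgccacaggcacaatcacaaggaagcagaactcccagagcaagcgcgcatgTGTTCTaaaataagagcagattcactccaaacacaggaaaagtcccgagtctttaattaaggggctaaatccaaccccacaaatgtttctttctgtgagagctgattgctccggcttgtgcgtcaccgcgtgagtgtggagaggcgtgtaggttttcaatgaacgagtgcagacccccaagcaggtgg

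Among the 43 probes whose groups did not overlap, the differences ranged from 0.06 to 0.50 log2 units in size with a median of 0.14, and 4 exceeded 0.25. Those 4, named after their values were seen, were all lower in XX+T. Retreg2, a receptor for autophagy of the endoplasmic reticulum, measured 10.46, 10.9, 10.53, 10.48 and 10.82 in XX and 10.31, 10.29, 10, 10.4 and 9.7 in XX+T. Bdnf, the neurotrophin that cortical axons supply to the striatum, was detected on 2 XX arrays and on no XX+T array, so only a bound was available there. Tatdn2, a nuclease family gene, and Chl1, a cell adhesion molecule of the L1 family, differed by -0.27 and -0.26. The 43 probes held 41 named genes, none of them on any of the 32 gene lists described below, and 2 unnamed probes.

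Genes through which testosterone acts showed differences near 0. Of the list of sex steroid receptors and coregulators, 9 of 20 genes were measured, 0 were called and 0 reached an unadjusted p under 0.05, and the median difference was 0.01 (range -0.12 to 0.18), beside 0 for all 9573 genes. The receptors measured were Gper1, a membrane estrogen receptor (0.03 ± 0.09), and Pgr, the progesterone receptor, which was detected on 1 XX array and on no XX+T array. Esr1, Esr2 and Cyp19a1 were not analyzed here. Of the estrogen-related orphan receptors, Esrra differed by -0.05 ± 0.10 and Esrrb was detected on no array. Ncoa1, the SRC-1 coactivator, differed most, measuring 10.52, 10.84, 10.6, 10.07 and 10.82 in XX and 10.53, 10.46, 10.86, 10.9 and 10.99 in XX+T. That difference of 0.18 ± 0.17 lay within the spread between arrays. Ncoa3, a coactivator of the same family (0 ± 0.06), Pelp1, a coregulator (0.04 ± 0.07), Fkbp4, the FKBP52 cochaperone of steroid receptors (0.01 ± 0.08), and Pgrmc1, a membrane protein that binds progesterone (-0.12 ± 0.14), completed the list.

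Of the genes for steroid enzymes and transport, 14 of 29 were measured, 0 were called, and 1 was lower at an unadjusted p under 0.05. The list had a median of -0.05 and a range of -0.33 to 0.19. That gene was Hsd11b1, which regenerates active glucocorticoid. It measured 8.79, 8.31, 8.24, 8.7 and 8.25 in XX and 8.11, 8.47, 7.95, 7.97 and 8.13 in XX+T, where XX+T 2 exceeded 3 XX arrays. Its difference was -0.33 ± 0.14. Sult1a1, a sulfotransferase, differed by 0.19 ± 0.10, with XX+T 2 at 8.05 above the 7.4 to 7.6 of the other XX+T arrays. Srd5a3, of the steroid 5-alpha reductase family, differed by -0.05 ± 0.07 and Cyp7b1, which hydroxylates neurosteroids and oxysterols, by -0.14 ± 0.07. The 17-beta-hydroxysteroid dehydrogenase family genes Hsd17b4, Hsd17b7, Hsd17b10, Hsd17b11 and Hsd17b12 differed by 0.09, -0.07, 0.01, -0.04 and -0.15. Hsd3b2, Hsd3b7, Cyp11a1, Stard3 and Tspo, of steroid synthesis and cholesterol transport, differed by -0.15, -0.01, 0.05, -0.07 and 0.06.

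Known response genes were counted in the same way. Of 14 measured androgen- and glucocorticoid-responsive genes, 1 was higher at an unadjusted p under 0.05. This was Mt1, a metallothionein (0.16 ± 0.07). Ndrg1, Klf9 and Sult1a1 differed by -0.29, -0.22 and 0.19, and the list's median was 0.02. A second probe of Ndrg1, not the one counted, differed by -0.37 ± 0.15 and passed that unadjusted level, and Sult1a1 differed by 0.44 with normexp background correction. Of 11 measured estrogen-responsive and sexually dimorphic forebrain genes none reached that level, and the widest difference was that of Avpr1a, a vasopressin receptor (-0.30 ± 0.19).

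The neurons of the striatum were described by their own lists. Of 21 pan-striatal genes 0 reached an unadjusted p under 0.05, with a median of -0.03 and a range of -0.20 to 0.09. Ppp1r1b measured 14, 13.9, 13.94, 13.72 and 13.56 in XX and 13.81, 13.93, 13.93, 13.84 and 14.06 in XX+T. Drd1 measured 11.69, 10.95, 11.47, 11.74 and 10.52 in XX and 11.16, 11.35, 11.39, 11.14 and 11.01 in XX+T. The XX arrays spanned more than the XX+T arrays on both genes, with XX 5 the lowest. Drd2 measured 9.59, 9.74, 9.51, 9.25 and 9.53 in XX and 9.44, 9.28, 9.83, 9.59 and 9.78 in XX+T. The differences were 0.09 ± 0.09 for Ppp1r1b, -0.07 ± 0.19 for Drd1 and 0.06 ± 0.14 for Drd2.

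Of 8 direct pathway genes and 5 indirect pathway genes 0 reached an unadjusted p under 0.05. Sfxn1 is on the direct pathway list, counted by its brighter probe (-0.06). Its other probe, at the lower end of the ranking above, differed by -0.22 and passed that level. The 5 indirect pathway genes differed by 0 to 0.19. Tac1, which encodes substance P, measured 12.35, 12.37, 12.4, 12.92 and 12.07 in XX and 12.67, 12.7, 12.63, 12.51 and 12.71 in XX+T, a difference of 0.22 ± 0.12. Pdyn, encoding dynorphin, differed by -0.01 ± 0.09. The striatal interneuron list had 2 of 13 genes higher and 1 lower at that level. Lhx8, a transcription factor of cholinergic interneurons, differed by 0.26 ± 0.10, Gbx2, another such factor, by 0.22 ± 0.10, and Cort by -0.28 ± 0.13 on the brighter of its probes. Chat, the enzyme that makes acetylcholine, differed by 0.03 ± 0.06. Over all genes, 86 of 9573 were higher and 104 lower at an unadjusted p under 0.05.

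Most other lists had medians between -0.05 and 0.07. These covered dopamine, GABA and glutamate signaling, synapses, cell division, progenitors, cell death, chromatin, immediate early and stress genes, glia, endothelium and meninges. Homer1, a scaffold protein of the postsynaptic density, was lower at an unadjusted p under 0.05 (-0.21 ± 0.08), as was Aqp4, the astrocyte water channel (-0.30 ± 0.13). Sox2, a transcription factor of neural progenitors, was higher (0.23 ± 0.10). Of 13 microglial genes 12 had a negative difference, with a median of -0.05, while 52% of all probes had a positive one. Of 16 DNA methylation and chromatin genes 0 reached that level, Dnmt1, the maintenance methyltransferase, differing by -0.05 ± 0.12. The 4 blood genes had a median of -0.12, with Alas2, of heme synthesis in red cells, at -0.28 ± 0.23.

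**Figure D3:**
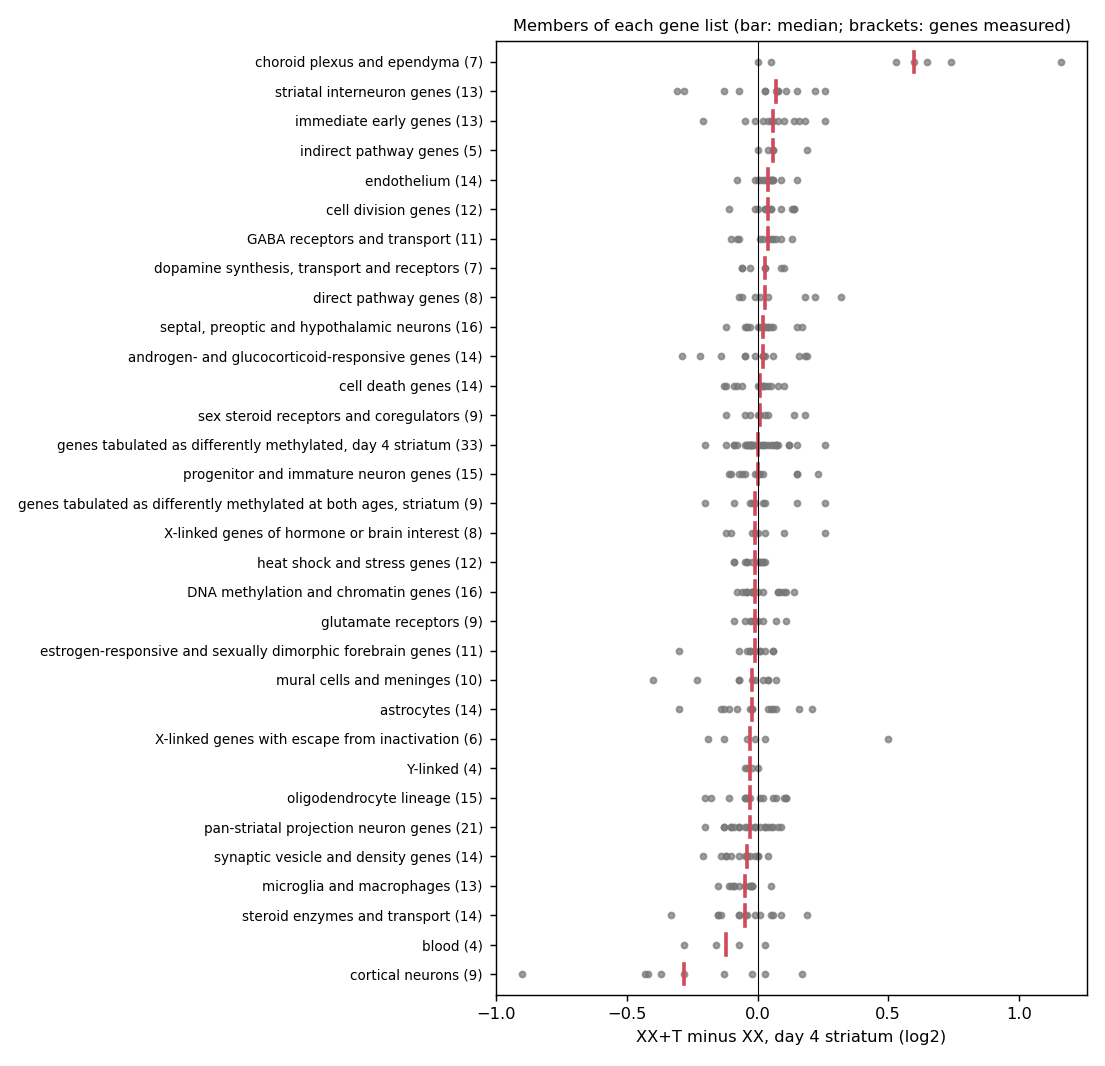
Log2 difference (XX+T minus XX, day 4 striatum) of each measured gene, 1 point per gene and 1 row per gene list, with the list median as a red bar and the number of genes measured in brackets. The choroid plexus and ependyma list (median 0.60) and the cortical neuron list (median -0.28) lie farthest from 0.

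A pair of lists, for cell types that border the striatum, lay farther from 0 than the rest. Of 7 measured genes of choroid plexus and ependyma, 2 were higher at an unadjusted p under 0.05, and the list's range was 0 to 1.16 with a median of 0.60. Of 9 measured genes of cortical neurons, 7 had a negative difference, with a median of -0.28, and 2 were lower at that level. No member was called, and all 10 arrays of the comparison varied widely on both lists. In tissue of this kind fewer cells of a type and less RNA per cell cannot be told apart.

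Ttr, transthyretin, the main secreted protein of the choroid plexus, spanned a 44-fold range over the 10 arrays. It measured 14.24, 9.54, 11.67, 13.83 and 11.64 in XX and 14.87, 10.21, 15, 14.66 and 11.98 in XX+T, with 13.01 to 14.96 in XY. Both groups held high and low arrays, and the difference of 1.16 ± 0.93 lay within the spread. Clic6, a chloride channel family gene of choroid plexus, measured 9.13, 8.61, 8.9, 8.7 and 8.65 in XX and 9.71, 8.79, 10.26, 9.78 and 9.13 in XX+T (difference 0.74 ± 0.29, limma adjusted p = 1). Otx2, a transcription factor that choroid plexus requires, measured 7.55, 7.43, 7.7, 7.68 and 7.51 in XX and 8.5, 7.47, 8.7, 8.21 and 7.65 in XX+T (0.53 ± 0.21). XX+T 1, 3 and 4 were the highest of the 10 arrays on Ttr, Clic6 and Otx2, and XX+T 2 lay among the XX arrays on all 3 genes. Foxj1, the master factor of motile cilia and an ependymal marker, differed by only 0.05 ± 0.06. The mean log2 level of the list ran from 8.13 to 9.15 in XX, 8.28 to 9.93 in XX+T and 8.67 to 9.74 in XY.

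Slc17a7, the vesicular glutamate transporter of cortical neurons, measured 9.69, 8.95, 7.53, 8.21 and 9.16 in XX and 8.14, 7.68, 7.47, 8.33 and 7.41 in XX+T, with 7.6 to 8.33 in XY. XX 1, 2 and 5 were the highest of the 10 arrays, and XX 3 and 4 lay within the XX+T range. The difference was -0.90 ± 0.31 (limma adjusted p = 1). Tbr1 and Fezf2, transcription factors of deep cortical layers, differed by -0.43 ± 0.25 and -0.37 ± 0.20, and Neurod2, of excitatory neurons, by -0.28 ± 0.12. The mean level of the list was 9.79, 9.72, 9.18, 9.19 and 9.82 in XX and 9.42, 9.15, 9.15, 9.56 and 9.1 in XX+T, and ran from 9.08 to 9.4 in XY. XX+T 2, 3 and 5 lay below every XX array, and XX+T 1 and 4 lay within the XX range.

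The widest differences outside the lists, named after their values were seen, followed similar arrays. Cck, the peptide cholecystokinin, had the widest difference of any probe. It measured 11.15, 9.76, 7.97, 8.47 and 10.99 in XX and 9.3, 8.02, 7.76, 8.37 and 7.74 in XX+T, a difference of -1.43 ± 0.51 with XX 3 and 4 inside the XX+T range. Zbtb18, a transcription factor of developing cortex, differed by -0.87 ± 0.32 and Lpl, lipoprotein lipase, by -0.71 ± 0.24, each highest on XX 1 or XX 5. Other probes of Zbtb18 differed by -0.73, -0.6 and 0.01. Aqp1, the water channel of choroid plexus, differed by 0.87 ± 0.45 and was highest on XX+T 1 and 3. Whether the cortical or choroid plexus RNA of a pool had a part in these differences was not tested. With the mean level of the cortical list as a covariate 320 probes, and with that of the choroid plexus list 214, reached an unadjusted p under 0.05, and 0 were called with either.

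**Figure D4:**
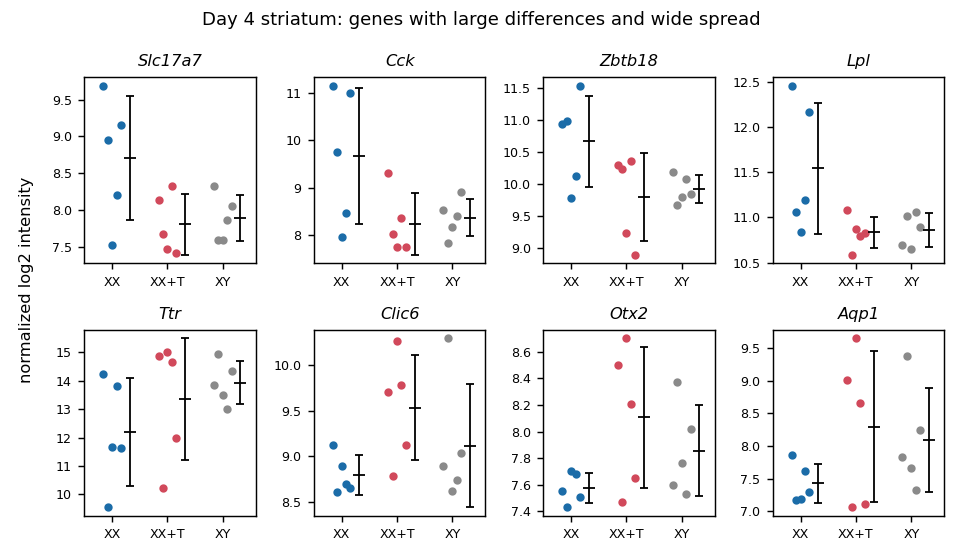
Normalized log2 intensity of 4 genes with wide negative and 4 with wide positive differences (day 4 striatum), 1 point per array, with mean and SD (bars) of 5 arrays per group; each vertical axis has its own range and does not start at 0. Slc17a7, Cck, Zbtb18 and Lpl have 2 or 3 high XX arrays, and Ttr, Clic6, Otx2 and Aqp1 have 3 high XX+T arrays and at least 1 low one.

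On the X chromosome, Xist measured 8.37, 8.03, 8.69, 8.16 and 7.66 in XX and 8.95, 9.14, 8.51, 8.15 and 8.65 in XX+T. The difference was 0.50 ± 0.18 (limma adjusted p = 1), the groups overlapped, and the second probe differed by 0.34 ± 0.11. Eif2s3x and Kdm6a, which escape X inactivation, differed by -0.13 ± 0.09 and -0.01 ± 0.09. At day 60 Xist differed by 0.18 in the striatum, and at day 4 it differed by 0.22 in the BNST/POA.

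Genes tabulated in the study as differently methylated in the day 4 striatum were measured on these arrays for 33 of 68 entries. The list came from the same study and is not independent of it. At an unadjusted p under 0.05, 1 was higher and 0 lower, with 17 positive and 16 negative differences and a median of 0. Of the 19 entries at both ages, 9 were measured. Rbbp7, a histone chaperone on the X chromosome, differed by 0.26 ± 0.10 on its brightest probe and by -0.09 to 0.18 on the other 3. Nnat, the imprinted neuronatin gene, differed by 0.15 ± 0.09 and Dab1, of the reelin pathway, by -0.20 ± 0.12. F8a, Grip1, Sorcs2, Rap2c, Fndc3b and Foxk1 differed by -0.09 to 0.03.

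The treatment difference was then compared between ages and regions. The day 60 mice had been gonadectomized before puberty and all carried testosterone implants, and the day 60 striatum had 4 XX+T and 5 XX arrays. The interaction of treatment with age called 0 of 13731 probes (0%), with a smallest adjusted p of 0.271 (limma). It had 1500 probes at an unadjusted p under 0.05, above the 687 or so that no difference would give. Without day 60 XX+T pool 4 it called 363. The interaction of treatment with region at day 4 also called 0 (0%), with 303 at an unadjusted p under 0.05, below that 687. Cck had the widest positive value in both interactions (1.66 ± 0.71 with age, 1.69 ± 0.70 with region), from -1.43 in the day 4 striatum against 0.24 at day 60 and 0.26 in the BNST/POA. Next with age came Zbtb18, Slc17a7, Eef2, a translation elongation factor gene, and Hcrt, the orexin peptide gene, at 1.41, 1.37, 1.35 and 1.24. The Zbtb18 value is that of its probe with a day 4 difference of -0.73. Mcph1, Erich5, Rpain, Exosc5 and Mnat1 had the widest negative values, -1.64 to -1.27, with day 4 differences of 0.03 to 0.17. With region, Slc17a7, Dcn, Serpinf1 and Nrp1 followed Cck at 0.96 to 0.64, and Defb11, Ttr, Erich5, Akap9 and Aqp1 were the widest negative, at -0.90 to -0.69.

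Probes picked by their day 60 difference had medians near 0 at day 4. The day 60 arrays alone called 0 probes (0%), with 2320 at an unadjusted p under 0.05, where no difference would give about 687. Without XX+T pool 4 the day 60 arrays called 1548 probes at adjusted p under 0.05. A fit that shared the spread of both ages, chosen after seeing the data, called 42 higher (0.306%) and 63 lower (0.459%) in day 60 XX+T. The day 4 XX and XX+T arrays took part in that fit through the shared spread. All 105 probes were picked on their day 60 values, which by itself makes their day 60 medians wide. At day 4 the 42 had a median difference of 0.03, 28 of them positive, beside a median of 0.55 at day 60. The 63 had a median of 0, 31 of them negative, beside -0.55 at day 60. Of all 105, 1 differed at an unadjusted p under 0.05 in the day 60 direction and 1 in the opposite direction, a probe of Micu2, a regulator of mitochondrial calcium uptake (0.16 ± 0.07 at day 4, -0.54 at day 60). The former was a probe of Atp6ap2, an accessory subunit of the vacuolar proton pump (0.28 ± 0.11 at day 4, 0.94 at day 60), whose other 2 probes on the list differed by 0.16 and 0.13 at day 4.

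Among those with the widest day 60 differences, Ccn2, a matricellular growth factor, differed by -1.31 at day 60 and by -0.21 ± 0.17 at day 4. Exosc5, an exosome subunit, had -1.20 and 0.08 ± 0.09, and Cldn5, the tight junction protein of brain vessels, -1.07 and 0.02 ± 0.17. Tmem160 and Slc25a38, both mitochondrial, had -1.04 and -1.01 at day 60 and -0.02 and -0.10 at day 4. Tsc22d1, a transcriptional regulator, had 1.08 and 0.10, and Ppp2r5c, a phosphatase subunit, had 1.07 and 0.03.

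**Figure D5:**
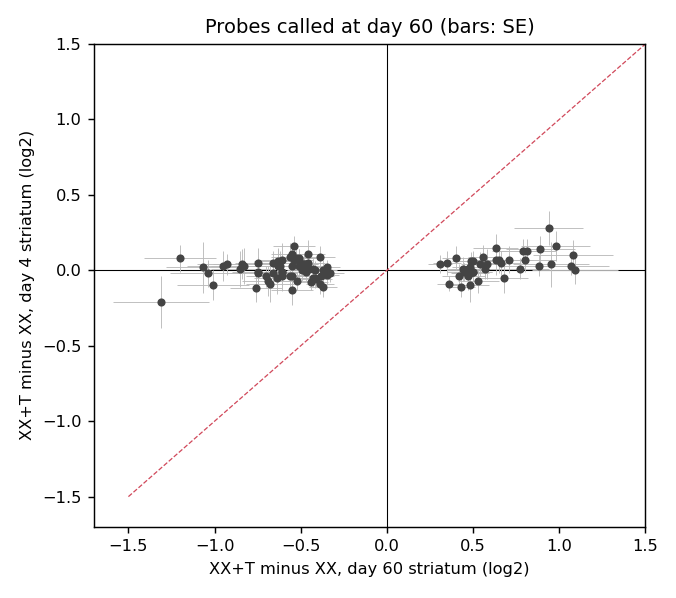
Log2 difference (XX+T minus XX) in striatum at day 60 (horizontal, 4 XX+T and 5 XX arrays) and at day 4 (vertical, 5 arrays each) for the 105 probes called at day 60 in the fit that shared the spread of both ages, with SE as bars and equal values on the dashed line. Day 4 differences stay within 0.28 log2 units of 0 while day 60 differences reach -1.31.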

How the data were processed

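The authors hybridized pooled striatal and BNST/POA RNA to Illumina mouse expression beadchips (57 arrays). They deposited non-normalized probe intensity with detection p-values, and a table of quantile-normalized log2 values. Log2 intensities were quantile normalized over all 57 arrays, which matched the authors' deposited log2 values within 5e-09. A probe was kept if 20 or more arrays had a detection p under 0.05, as 13731 of 25697 did. The platform annotation named 12944 and a supplementary list of the study 13 more, for 9573 genes. A further 114 columns (bead statistics) were not used. limma 3.58.1 in R 4.3.3 was fitted to the 15 day 4 striatal arrays with 1 mean per group and tested on simulated data, with p adjusted by Benjamini-Hochberg. Differences are XX+T minus XX on the log2 scale, ± SE. Gene lists used the brightest probe of a gene. The text names the 10 lowest p in each direction, all steroid genes, up to 4 members of other lists with the widest differences, and the widest interaction and day 60 values. A few genes that this rule would name are not reported here. Members and lists were chosen with earlier results of these data known. Array number limits the precision, and p-values measure the spread between pools. Replicate numbers did not pair arrays (same-number correlations -0.491 to 0.072). Beadchip positions were not given in the sources used here. Alternatives covered the arrays fitted, normalization, background, filter, weights, replicate block and leaving out arrays.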

Additional observations from a re-analysis of the deposited data

Results flagged for a closer look

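In 164 groups of 5 values examined, 12 had 1 array far from the other 4 (its gap divided by the group's range was above Dixon's critical value of 0.71), where chance alone would give about 8.

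XX 4 was lowest for Ccdc114 (7.82 against 7.96 to 8, ratio 0.778), Tollip (8.93 against 9.07 to 9.12, ratio 0.737), the mean of the DNA methylation and chromatin list (9.42 against 9.52 to 9.56, ratio 0.714) and the mean of the list differently methylated at both ages (9.58 against 9.79 to 9.84, ratio 0.808), and highest for the mean of the Y-linked list (7.38 against 7.27 to 7.3, ratio 0.727). XX+T 2 was lowest for Ccdc114 (7.98 against 8.17 to 8.24, ratio 0.731) and the chromatin list (9.46 against 9.54 to 9.55, ratio 0.889). XX+T 3 was lowest for Elob (14.25 against 14.39 to 14.43, ratio 0.778), and XX+T 5 for Hsd17b12 (9.91 against 10.29 to 10.42, ratio 0.745). XX 1 was highest for Pgr (7.31 against 7.1 to 7.16, ratio 0.714), the one array of the comparison on which Pgr was detected. XX 5 was highest for the cell division list (8.85 against 8.63 to 8.64, ratio 0.955), and XX 2 for the blood list (10.35 against 9.72 to 9.88, ratio 0.746).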

How the results depend on the processing

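No alternative gave a called probe in the day 4 comparison, and no list member was called. The 20 top-ranked genes kept their direction in all 400 refitted differences. These genes were picked on the same arrays, so a kept direction was largely set by the choice and adds no support for them. The normexp background correction moved some of their differences by over 1.5 times, to -0.96 for Cort, -0.50 for Syne1, -0.33 for Tafa1, -0.32 for Pip4k2b, 0.42 for Tmtc2 and Cmtm8, and 0.37 for Ccdc114 and Zmynd10. The probes at unadjusted p under 0.05 (265) numbered 61 with the spread of both ages, 727 of 25697 with no detection filter and 679 with array weights, each under 5% of the probes tested. Leaving out 1 array gave 180 to 632 of them, with 632 without XX 4 and 496 without XX+T 2. Non-overlapping probes (43) numbered 128 with no filter and 66 to 305 with 1 array left out, where fewer values have to be apart. The replicate block gave 257 probes at unadjusted p under 0.05 and 0 calls, and changed no call in the interactions or at day 60. Of the 460 refitted differences of 23 steroid genes, 5 moved by more than 1 SD between XX arrays. Median centering moved the median of all differences to -0.0382. The list medians ran from 0.38 to 0.91 for choroid plexus and ependyma and from -0.60 to -0.15 for cortical neurons. At day 60, 105 probes were called with the spread of both ages, of which 1 reached an unadjusted p under 0.05 at day 4 in the same direction. Leaving out 1 array gave 0 to 1548 calls at day 60 and 0 to 363 in the age interaction, both maxima without XX+T pool 4, and 0 to 0 in the region interaction. Without day 60 XX+T pools 3 and 6 together, which left pools 4 and 5, 0 were called at day 60 and 0 in the age interaction. The cause of these shifts was not tested.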
